A study of Mus musculus with 39 samples.

Results

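The genes described here write, copy and remove DNA methylation in the mouse germ line and embryo: Dnmt1, Dnmt3a, Dnmt3b, Dnmt3l, Uhrf1, Dppa3, Tet1, Tet2, Tet3 and Tdg. They were chosen by name, as the probes whose gene name in the scanner files was one of these 10 symbols, and their levels were not used in the choice. The 10 genes had 21 of the 55681 probes of the array, and the probe with the highest mean signal stood for each gene among the 31872 genes tested. All 10 passed the filter on dim signals, and the probe that stood for each was detected in all 13 conditions. Detected means positive and significant on at least 1 array of the condition.

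DNA methylation is laid down on new sites by Dnmt3a and Dnmt3b, which in the growing oocyte work with the catalytically inactive Dnmt3l. Dnmt1, brought to hemimethylated DNA by Uhrf1, copies the pattern after each replication. Tet1, Tet2 and Tet3 oxidise methylcytosine, Tdg excises the oxidised forms, and Dppa3 (also called Stella or PGC7) shields the maternal genome from Tet3 after fertilisation. Preimplantation embryos are known for the loss of most gamete-derived methylation before the blastocyst acquires its own.

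The series measured mRNA on 39 one-colour Agilent mouse arrays, each with RNA of 100 oocytes or embryos and with 3 arrays in each condition. MII oocytes came from superovulated B6D2F1 females of 8 to 9 weeks and were fertilised in vitro with sperm of ICR males of 15 to 20 weeks. Untreated material was taken as GV (germinal vesicle) oocytes, MII (metaphase II) oocytes, 1-cell, 2-cell, 4-cell and 8-cell stage embryos, morulae and blastocysts. The treated zygotes were exposed to 10 µM of a histone deacetylase inhibitor (HDACi) for 6 h, starting 4 h post insemination (hpi), and were collected at 12 hpi (1-cell), 24 hpi (2-cell) or 48 hpi (4-cell). One HDACi was T247, described by the study as selective for HDAC3 and measured at all 3 of these stages, and the other was MGCD0103, described as selective for class I HDACs and measured in 1-cell and 2-cell embryos, because those exposed to it did not develop to the 4-cell stage. No group carried a genetic change, and pools of whole embryos hold every cell of the embryo, so that fewer cells of a type and less RNA per cell cannot be told apart.

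Values are log2 signal intensities after smooth quantile normalisation, on which 1 unit is a doubling, and LFC is a difference of 2 group means on that scale. A gene was called when the absolute LFC was at least 1 and the Benjamini-Hochberg adjusted p of limma, taken over all 31872 genes, was below 0.05. Signals of different probes are not on a common scale, so levels were compared between conditions and never between genes.

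Between 44.4% and 58.3% of the probes were well above background on an array and no spot was saturated. Well above background is a stricter flag than detected, and the text below also writes it as above background. Arrays of one condition correlated at 0.982 to 0.993 in every condition except the 2-cell control, in which replicate 1 correlated at 0.954 and 0.96 with the others while these correlated at 0.992. That array had a mean correlation of 0.918 with the 1-cell control arrays, against 0.868 and 0.877 for the other two, and results whose call or size turned on it are given with and without it. Replicates 1, 2 and 3 of all 8 untreated stages lay on slides 1, 2 and 3, whereas slides 4 and 5 held T247 and slide 6 held MGCD0103 embryos only. Treatment and slide therefore cannot be told apart. Of the markers checked, all 7 oocyte genes were well above background on every array from the GV oocyte to the 8-cell stage, and all 8 blastocyst genes in morulae and blastocysts. Presence alone did not mark the stage, since 7 of the 8 blastocyst genes were so on all 3 GV arrays too. The summed level of the 8 was 13.92 to 14.06 in GV oocytes and 19.05 to 19.14 in blastocysts. Of the 4 sperm genes, 2 were well above background on all 3 GV arrays. The summed level of 8 cumulus and granulosa cell genes was between 11.97 and 12.01 on the log2 scale in GV oocytes. In the 4-cell control it was between 5.3 and 5.66, and none of the 8 was above background on all 3 arrays there. The signal of Cyp19a1 dominated the GV sum, with a mean of 11.89 against 6.57 for Inha, the next. Cyp19a1 still read 11.75 in MII oocytes and 10.84 in 1-cell embryos, and 3.62 in the 4-cell control. Tnfaip6, Ptx3 and Amh were above background on no GV array.

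Because the genes act on CpG sites, the 250 bases before the annotated starts were read from a set of RefSeq promoters (GRCm38.p6). The set used held 16 starts for 9 of the 10 genes and none for Dppa3. The CpG counts of these stretches ran from 2 to 51, against a median of 6 and quartiles of 2 and 16 over all 32841 promoters of the same length. Printed are the CpG-poorest and CpG-richest of them and a pair between, in 5′ to 3′ order on the gene's own strand, with every CG in capitals. The Dnmt1 start farthest upstream, at chr9:20959889-20960138 on the minus strand, has 2 CpGs, and 18.8% of all promoters have fewer. The Dnmt1 start farthest downstream, at chr9:20952624-20952873 on the minus strand, has 26, and 90.4% of promoters have fewer.
Dnmt1, upstream start: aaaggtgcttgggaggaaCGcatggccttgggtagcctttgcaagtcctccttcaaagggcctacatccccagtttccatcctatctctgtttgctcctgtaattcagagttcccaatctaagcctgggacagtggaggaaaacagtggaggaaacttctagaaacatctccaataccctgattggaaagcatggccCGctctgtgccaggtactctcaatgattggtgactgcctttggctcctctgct
Dnmt1, downstream start: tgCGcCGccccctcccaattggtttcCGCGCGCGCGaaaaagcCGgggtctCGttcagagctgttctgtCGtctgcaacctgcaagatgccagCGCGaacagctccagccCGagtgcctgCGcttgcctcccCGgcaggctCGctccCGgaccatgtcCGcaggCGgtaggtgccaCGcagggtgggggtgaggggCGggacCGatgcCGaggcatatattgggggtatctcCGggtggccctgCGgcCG
Dnmt3l, the catalytically inactive partner, has 5, 4 and 3 CpGs before its 3 listed starts, all below the median of promoters, and the one at chr10:78055085-78055334 on the plus strand has the fewest.
Dnmt3l: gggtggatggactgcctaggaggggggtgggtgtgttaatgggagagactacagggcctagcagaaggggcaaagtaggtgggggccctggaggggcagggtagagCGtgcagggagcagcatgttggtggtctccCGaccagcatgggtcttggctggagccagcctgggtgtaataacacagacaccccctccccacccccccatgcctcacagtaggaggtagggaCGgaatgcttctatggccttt
Tet2 stands at the other end, with 51 CpGs at chr3:133544391-133544640 on the minus strand, and 99.9% of promoters have fewer.
Tet2: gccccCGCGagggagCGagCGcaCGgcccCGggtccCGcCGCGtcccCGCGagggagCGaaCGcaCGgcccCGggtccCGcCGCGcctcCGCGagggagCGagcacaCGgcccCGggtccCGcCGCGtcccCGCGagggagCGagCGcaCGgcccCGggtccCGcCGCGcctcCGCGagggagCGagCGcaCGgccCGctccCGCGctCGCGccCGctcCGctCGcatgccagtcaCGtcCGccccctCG
The upstream Dnmt1 stretch had the fewest CpGs of the 16 and the Tet2 stretch the most. The arrays do not measure methylation or which start was used.

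The probes of Tet1, Tet2 and Uhrf1 did not run in parallel over the untreated stages, so the place each reads matters. Those of Tet3 and of Uhrf1 differed in sign in some treated comparisons. The Tdg probes were all near background until the morula. Places are given here for Tet1, Tet2 and Tdg. The 3 Tet2 probes lie on mm9 (the build of the scanner files) at chr3:133126751-133126810, chr3:133126905-133126964 and chr3:133176421-133176479, all on the minus strand. The first pair, at transcript positions 9011 and 8857, are 94 bases apart, and the other, at position 668 of a separate cDNA, is 49456 bases upstream. Printed are 30 of the bases of each, with any AATAAA, the usual polyadenylation signal, in capitals.
Tet2, position 9011: tacaatctgagggtggttataaatactgta
Tet2, position 8857: ggtagtttggttaacttgttagggtttttt
Tet2, position 668: agttgatcttAATAAAgacctgtttgcttt
AATAAA stands in 10.1% of the 55681 probes and in 2 of the 21 here, the Tet2 probe at position 668 and the Dppa3 probe. The 3 Tet1 probes, at transcript positions 3128, 5298 and 6892, lie at chr10:62301856-62301915, chr10:62276042-62276101 and chr10:62274448-62274507 on the minus strand of mm9. Between the first and the next lie 25754 bases, and between the other pair 1534.
Tet1, position 3128: tgaaagtacaccagaaagccttgttgcaaa
Tet1, position 5298: tcctccgcagaaacatctacctgtacgtac
Tet1, position 6892: tttacttatagaatagagggtctctaaaaa
The 3 Tdg probes, at positions 1178, 2972 and 3093, lie at chr10:82110701-82110760, chr10:82112994-82113053 and chr10:82113115-82113174 on the plus strand. ATTAAA, a common variant of that signal, is in capitals, and 3.95% of all probes hold it.
Tdg, position 1178: agtatgatccaggctatgaggcagcttacg
Tdg, position 2972: ggcgttctcATTAAAtaatactgagatttt
Tdg, position 3093: ctttctcttacatgtcacatgacaaaaatc
Exon and untranslated region boundaries on mm9 were not given in the sources used here.

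The first question was how the genes ran over untreated development. Of the 10 genes, 4 were called between GV and MII oocytes, all lower in MII, against 34.4% of all genes tested and 34% called as lower. Fertilisation moved 3 of 10 (1-cell against MII), against 15.5% of all genes. The step from the 1-cell to the 2-cell stage moved 8 of 10, 7 of them down, against 39.1% of all genes and 23.1% called as lower, and the median LFC of the 10 was -1.77 against -0.19 for all genes. From the 2-cell to the 4-cell stage 5 of 10 were called, against 44.8%. Without 2-cell control replicate 1 the same 8 genes were called at the former step, and at the latter Dnmt3b and Dppa3 joined the 5. Shares of all genes are not given for these fits. From the 4-cell to the 8-cell stage 2 of 10 were called, both of them up, against 10.6% of all genes and 5.56% called as higher. From the 8-cell stage to the morula 7 of 10 were called, 6 of them up, against 25.7% and 20.6% called as higher, with a median LFC of 1.78 against 0.28 for all genes. From morula to blastocyst 4 of 10 were called, 3 of them up, against 20.4% and 14.5% called as higher. Of the 33 called stage differences, 32 had the same sign on all 3 slides, the exception being Tet2 from MII to the 1-cell stage (-2.60, -1.80 and 0.51 on slides 1, 2 and 3), where it was on no 1-cell array above background and no fold is given.

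**Figure D1:**
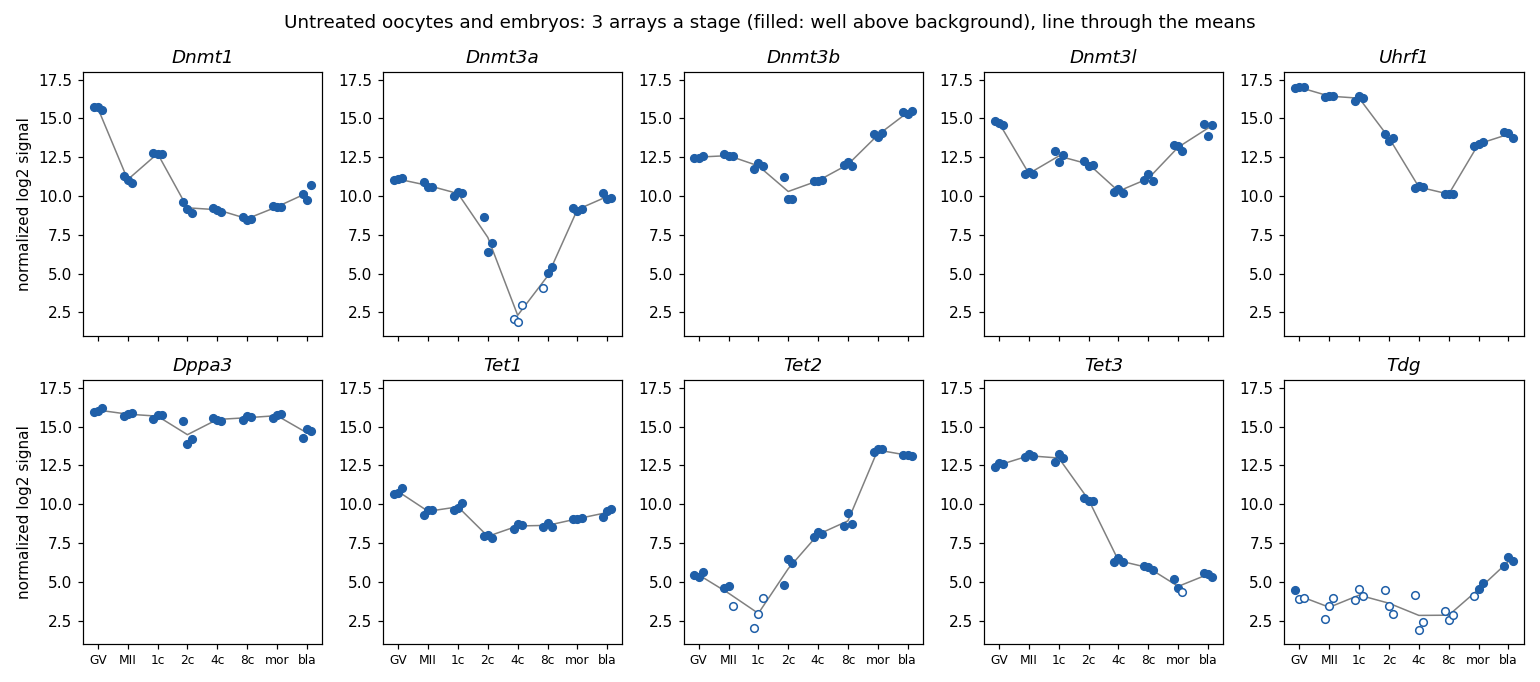
Log2 signal intensity (y axis) of each of the 10 genes over the 8 untreated stages (x axis), with a point for each of the 3 arrays, open where the signal was not well above background, and a line through the means. Dnmt1 drops between the GV and MII oocyte, Tet3 and Uhrf1 drop between the 1-cell and 4-cell stages, and Tet2, Dnmt3a and Uhrf1 climb between the 8-cell stage and the morula.

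Dnmt1, the maintenance methyltransferase, was highest in GV oocytes, at 15.72, 15.72 and 15.54 on the 3 arrays. It stood at 11.30, 11.01 and 10.86 in MII oocytes, and at 12.75, 12.72 and 12.74 at the 1-cell stage. The groups did not overlap, and the gene fell 24.3-fold from GV to MII (LFC -4.60, SE 0.16, adjusted p = 4.74e-21) and rose 3.2-fold from MII to the 1-cell stage (LFC 1.68, adjusted p = 6.17e-10). A second fall of 11.3-fold followed at the 2-cell stage (9.61, 9.18 and 8.93, LFC -3.50, adjusted p = 1.13e-17). From there to the blastocyst no single step was called, though the last was without blastocyst replicate 2 (LFC 1.09), and the order of the morula, 2-cell and 4-cell means (9.31, 9.24 and 9.12) could not be settled, since their arrays overlapped.

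Uhrf1, which brings Dnmt1 to the replication fork, stayed high for longer. The arrays read 16.95, 17.05 and 17.00 in GV oocytes, 16.41, 16.45 and 16.45 in MII oocytes and 16.15, 16.45 and 16.31 at the 1-cell stage, a decline of less than 1 unit in all. Uhrf1 then fell 5.9-fold at the 2-cell stage (13.97, 13.55 and 13.71, LFC -2.56, SE 0.10, adjusted p = 1.37e-18) and 8.93-fold at the 4-cell stage (10.53, 10.65 and 10.56, LFC -3.16, adjusted p = 5.12e-21). Its lowest values were those of the 8-cell stage (10.14, 10.11 and 10.12), and in the morula it rose 9.43-fold to 13.24, 13.35 and 13.49 (LFC 3.24, adjusted p = 3.3e-20). Dnmt1 over the same step had an LFC of 0.77 (95% interval 0.45 to 1.09, adjusted p = 0.000163), under the size needed for a call. The other Uhrf1 probe, at transcript position 985, went the other way up to the 1-cell stage, with means of 10.85 in GV oocytes, 11.38 in MII oocytes and 12.05 in 1-cell embryos. It then also fell, to 4.86 at the 4-cell stage, and read 7.07 in the blastocyst.

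Dppa3, the protector of the maternal genome, changed least of the 10, with condition means over the 8 untreated stages between 14.47 and 16.06. Its 2-cell arrays read 15.35, 13.89 and 14.18, below the 1-cell arrays (15.46, 15.77 and 15.77), and the gene was called as lower (LFC -1.19, SE 0.21, adjusted p = 1.28e-05). The 2-cell array at 15.35 was replicate 1, the one that stood apart from its group, and the later step up to the 4-cell stage (15.53, 15.45 and 15.38, LFC 0.98) was called without it (LFC 1.42) and without 4-cell replicate 3 (LFC 1.02). The fall at the 2-cell stage had an LFC of -1.63 without 2-cell replicate 1, and it was not called without replicate 2 (LFC -0.90), under 75th percentile scaling or quantile normalisation, or with limma on those 6 arrays alone (adjusted p = 0.0656). In the blastocyst the arrays read 14.24, 14.85 and 14.69, below the morula at 15.58, 15.74 and 15.78 (LFC -1.11, adjusted p = 7.87e-05; LFC -0.93 and no call without blastocyst replicate 1).

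Of the de novo enzymes, Dnmt3a ran through a trough around the 4-cell stage. Its arrays read 10.03, 10.27 and 10.18 in 1-cell and 8.64, 6.40 and 6.96 in 2-cell embryos, a fall of LFC -2.83 (-3.48 without 2-cell replicate 1). In 4-cell embryos they read 2.07, 1.88 and 3.00, none well above background, which makes the gene at least 8.65-fold lower than at the 2-cell stage (adjusted p = 2.08e-13). At the 8-cell stage 2 of 3 arrays were above background (4.10, 5.01 and 5.41), at least 1.54-fold higher than at the 4-cell stage, and the morula read 9.22, 9.02 and 9.15. The step into the morula was a rise of 19.6-fold (LFC 4.29, SE 0.35, adjusted p = 2.7e-11).

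Dnmt3b, the other de novo enzyme, had no such gap and ended highest. The condition means went from 12.51 in GV oocytes to 10.30 at the 2-cell stage and 15.39 in the blastocyst, and the step from the 2-cell to the 4-cell stage (LFC 0.69) was called when 2-cell control replicate 1 was left out (LFC 1.14). Each of the last 3 steps was a rise, of LFC 1.05 into the 8-cell stage (adjusted p = 0.00022, with no call without 8-cell replicate 2, LFC 0.97), 1.89 into the morula (adjusted p = 4.96e-09) and 1.46 into the blastocyst (adjusted p = 8e-07). The blastocyst arrays read 15.39, 15.28 and 15.49, above every other array of the gene, and its other probes, at transcript positions 2950 and 3843, were also highest there, with a mean of 13.7 each.

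Dnmt3l, the partner of both, fell 9.57-fold from GV oocytes (14.82, 14.70 and 14.60) to MII oocytes (11.43, 11.52 and 11.40), with an LFC of -3.26 (SE 0.16, adjusted p = 4.94e-17). It was then called as higher at the 1-cell stage (12.88, 12.22 and 12.63, LFC 1.13, adjusted p = 1.86e-06, though at 0.97 not without 1-cell replicate 1) and lower at the 4-cell stage (10.27, 10.47 and 10.20, LFC -1.74, adjusted p = 9.94e-11). Morula and blastocyst each brought a rise (LFC 2.02 and 1.23), and the blastocyst arrays (14.67, 13.90 and 14.56) lay near those of the GV oocyte, 1 of them within the GV range and the others below it. Dnmt1 and Dnmt3l were the pair that dropped at maturation and rose after fertilisation.

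Under other scalings of the same arrays the GV to MII step reads differently, because the median LFC of all genes there was -0.49 after smooth quantile normalisation and 0.80 after scaling each array to its 75th percentile. Dnmt1 and Dnmt3l fell in all 19 alternative analyses, but the size varied. The LFC lay between -4.72 and -3.24 for Dnmt1 and between -3.31 and -1.9 for Dnmt3l. Under the 75th percentile the direction of Tet1 (LFC 0.05), Tet2 (LFC 0.02) and Dppa3 (LFC 1.11) was turned. Tet3 and Dnmt3b were called as higher there (LFC 1.93 and 1.44), and also after quantile normalisation (LFC 2.07 and 1.6). Under the 75th percentile the split of called genes went from 0 up and 4 down to 3 up and 2 down. From the 2-cell to the 4-cell stage it went from 1 up and 4 down to 4 up and 4 down, the additions being Dnmt3b, Tet1 and Dppa3. The Tet2 call from GV to MII was also lost without GV replicate 1 or 3 or MII replicate 3 (LFC -0.77).

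Among the oxidising enzymes, Tet3 was highest in oocytes and 1-cell embryos. It read 13.02, 13.24 and 13.09 in MII oocytes and 12.73, 13.21 and 12.97 at the 1-cell stage, groups that overlapped. It fell 6.47-fold at the 2-cell stage (10.39, 10.21 and 10.23, LFC -2.69, SE 0.21, adjusted p = 3.64e-12) and a further 15.1-fold at the 4-cell stage (6.28, 6.50 and 6.30, LFC -3.92, adjusted p = 3.77e-16). The morula had the lowest mean (4.70), with 1 of 3 arrays no longer above background, and the blastocyst arrays read 5.59, 5.52 and 5.32. Its probes at transcript positions 3494 and 4483 fell over the same stages, to means of 6.2 and 4.07 at the 4-cell stage from 10.46 and 11.91 at the 1-cell stage.

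Tet2 ran the opposite course. At the 1-cell stage the arrays read 1.99, 2.94 and 3.95, none above background. At the 2-cell stage they read 4.80, 6.49 and 6.23, at least 2.9-fold higher (adjusted p = 1.39e-06), and at the 4-cell stage 7.87, 8.21 and 8.06 (LFC 2.21, SE 0.43, adjusted p = 5.75e-05; LFC 1.69 without 2-cell replicate 1). The rise into the morula was 23.7-fold, from 8.62, 9.43 and 8.71 to 13.37, 13.53 and 13.55 (LFC 4.56, adjusted p = 4.92e-10). The means of Tet2 and Tet3 correlated at r = -0.91 over the 8 untreated stages, as a description of 8 points that share arrays.

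The Tet2 probe at position 668 showed another course. Its mean was 3.32 at the 1-cell stage with no array above background, 7.86 in 2-cell and 5.47 in 4-cell embryos, a step down of LFC -2.39 (adjusted p = 1.14e-05) where the probe at position 9011 stepped up. In the morula it read 6.46 and in the blastocyst 6.93, while the probes at positions 9011 and 8857 reached 13.48 and 12.13 in the morula. The 2-cell peak was seen with the probe of the separate cDNA alone.

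Tet1 also depended on the probe. The brightest, at position 5298, was highest in GV oocytes (10.68, 10.73 and 11.01), and it fell 3.73-fold from the 1-cell to the 2-cell stage, where it was lowest (7.97, 8.01 and 7.79; LFC -1.90, SE 0.18, adjusted p = 2.83e-10). The probe at position 3128 was on no array above background in GV oocytes, MII oocytes or 1-cell embryos, and had a mean of 6.81 in 2-cell and 8.86 in 4-cell embryos. The probe at position 6892 had means between 7.19 and 7.79 up to the 2-cell stage and 10.48 in 4-cell embryos, with 11.53 in the blastocyst. The fall at the 2-cell stage was seen with 1 of 3 probes, and over that step the others had an LFC of 3.04 and 0.30.

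Tdg, the glycosylase that removes oxidised cytosines, was near background until the morula. The probe at position 3093 was above background in the untreated stages on 1 of 3 GV arrays, 2 of 3 morula arrays (4.11, 4.51 and 4.92) and every blastocyst array (6.01, 6.59 and 6.31). The rise into the morula was at least 1.17-fold (adjusted p = 0.00139) and that into the blastocyst 3.47-fold (LFC 1.79, SE 0.41, adjusted p = 0.000844). The probes at positions 1178 and 2972 were above background on no untreated array before the morula, and both had a mean of 5.56 there and of 8.9 and 8.74 in the blastocyst.

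**Figure D2:**
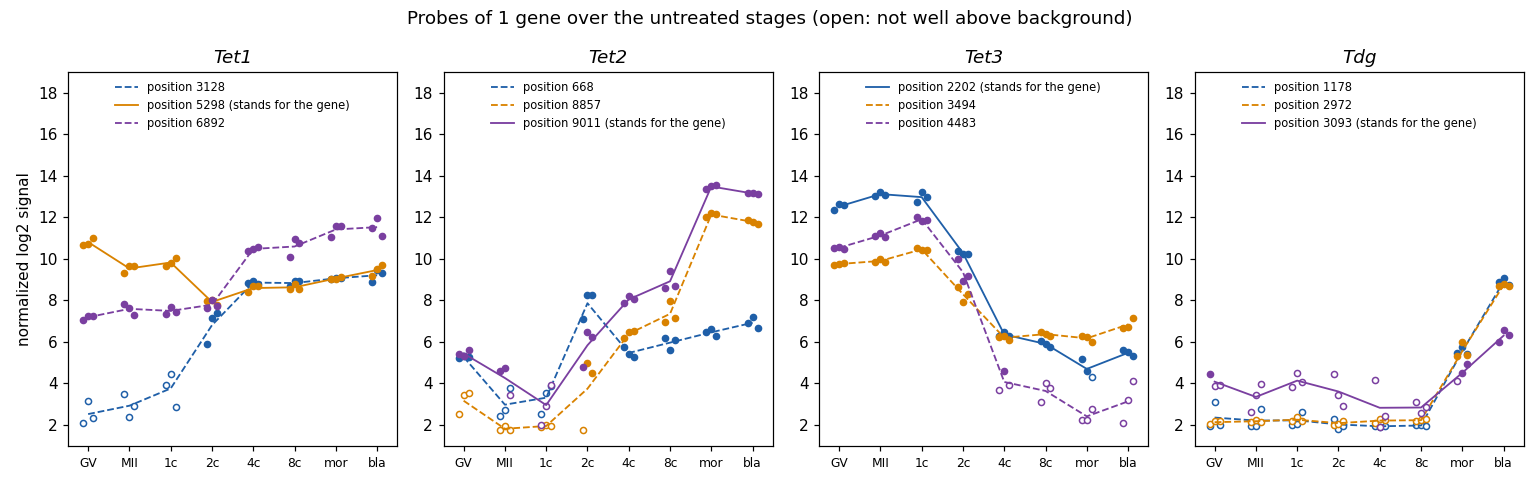
Log2 signal intensity (y axis) of each probe of Tet1, Tet2, Tet3 and Tdg over the 8 untreated stages (x axis), 1 colour for each transcript position, with points for the 3 arrays, open where not well above background, and lines through the means, solid for the probe that stands for the gene. The Tet2 probe at position 668 peaks at the 2-cell stage with a mean of 7.86, whereas the probe at position 9011 climbs to 13.48 in the morula.

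The next question was how these genes stood after a 6 h exposure of zygotes to an HDACi. At the 1-cell stage, 2 h after the exposure ended, none of the 10 was called with T247, against 6.89% of all genes, and none with MGCD0103, against 4.13%. By an unadjusted limma p below 0.05, 3 of 10 genes differed with T247 (Dnmt1, Uhrf1 and Tdg) and 1 of 10 with MGCD0103 (Uhrf1). No share of all genes is given for that looser limit, so the counts describe the 10 genes only. Uhrf1 was the only member of the 10 with an adjusted p below 0.05. Its control arrays read 16.15, 16.45 and 16.31, its T247 arrays 15.71, 15.72 and 15.70 and its MGCD0103 arrays 15.86, 15.88 and 15.87. Every treated array lay below every control array, with an LFC of -0.60 for T247 (95% interval -0.81 to -0.38, adjusted p = 0.000135) and -0.44 for MGCD0103 (-0.65 to -0.22, adjusted p = 0.00577). The other Uhrf1 probe, at position 985, did not share this order, with means of 12.05 in the control, 12.31 with T247 and 12.24 with MGCD0103. Tdg, read by the probe at position 3093, was above background on all 6 treated arrays and on none of the controls, at least 1.73-fold higher with T247 (4.96, 5.17 and 5.29 against 3.82, 4.50 and 4.09, adjusted p = 0.102). With MGCD0103 the bound was 1.44-fold (4.82, 4.64 and 5.16, adjusted p = 0.304), and neither difference passed the test. The Tdg probes at positions 1178 and 2972 were above background on only 7 and 6 of all 39 arrays.

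**Figure D3:**
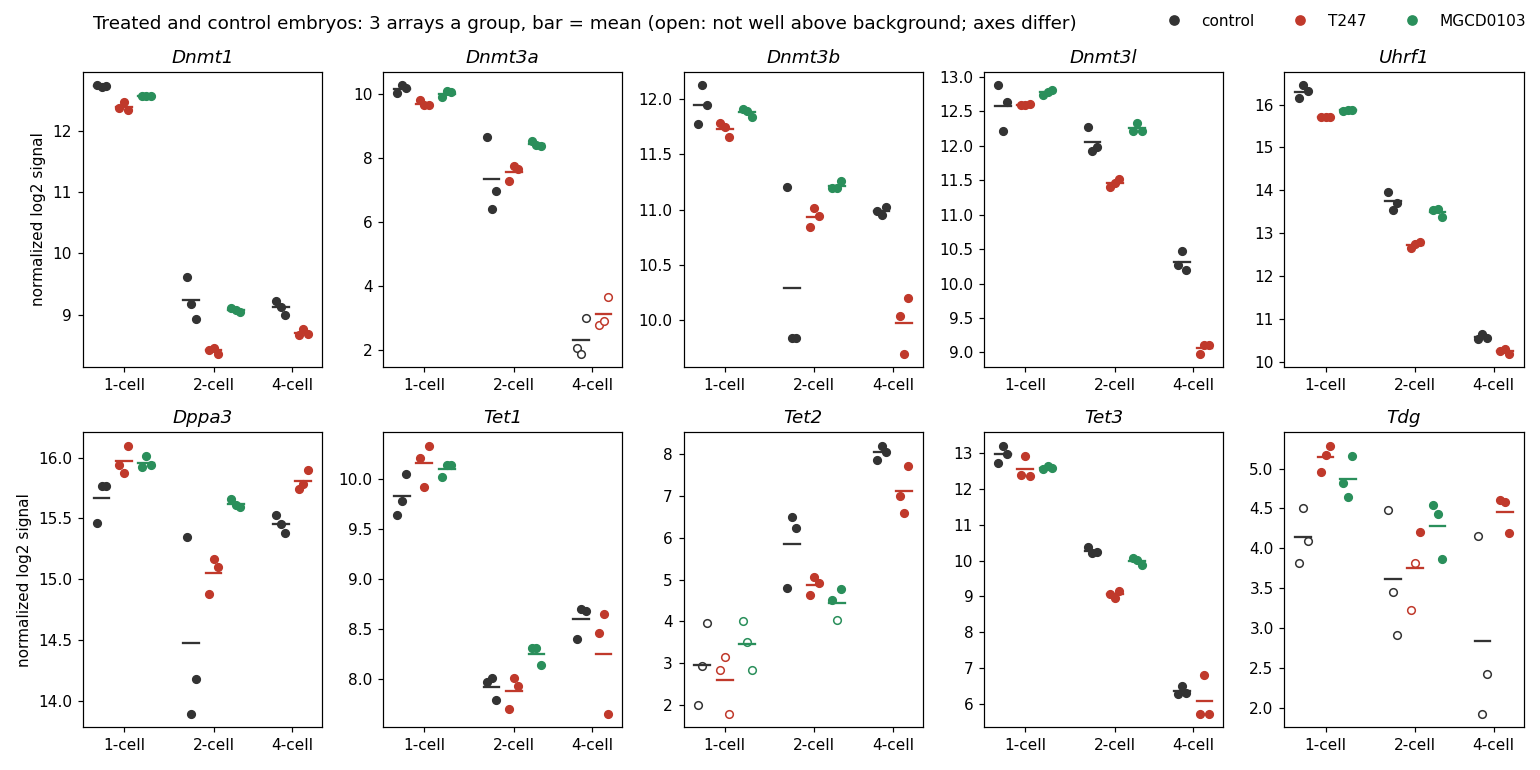
Log2 signal intensity (y axis) of the 10 genes by stage, from 1-cell to 4-cell, and by treatment (x axis; control, T247 and MGCD0103), with a point for each of 3 arrays, open where not well above background, and a bar at the mean. The Tet3 and Uhrf1 points of T247 lie below those of control and MGCD0103 at the 2-cell stage, and replicate 1 of the 2-cell control lies apart for Dnmt3a, Dnmt3b, Dppa3 and Tet2.

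At the 2-cell stage Tet3 and Uhrf1 fell with T247, 2 of the 10 genes, against 20.9% of all genes called in either direction and 12% called as lower. Tet3, the maternal oxidase, read 10.39, 10.21 and 10.23 in the control and 9.07, 8.97 and 9.14 with T247. The groups lay more than 1 unit apart, and the gene fell 2.32-fold (LFC -1.22, SE 0.21, 95% interval -1.65 to -0.78, adjusted p = 2.62e-05). The Tet3 probes at positions 3494 and 4483 had an LFC of -0.03 and -0.51 in the same comparison. Uhrf1 read 13.97, 13.55 and 13.71 in the control and 12.65, 12.74 and 12.80 with T247, a fall of 2.02-fold (LFC -1.01, SE 0.10, adjusted p = 5.38e-09). Its other probe had an LFC of -0.81 (adjusted p = 0.000746). The Uhrf1 call lies at the size limit: it was lost without 2-cell control replicate 1 (LFC -0.90) and without T247 replicate 1 (LFC -0.97), while the adjusted p stayed at 1.58e-08 and 1.77e-07. Under quantile normalisation neither gene was called (LFC -0.97 for Tet3 and -0.63 for Uhrf1), and the 2 called genes were Dnmt3b, higher (LFC 1.2), and Tet2, lower (LFC -1.18, adjusted p = 0.0414). With the mean of a gene's probes both calls were lost as well (LFC -0.58 and -0.90).

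Dnmt1, the enzyme that Uhrf1 recruits, also lay lower with T247 on every array (8.42, 8.46 and 8.36 against 9.61, 9.18 and 8.93), with an LFC of -0.83 (95% interval -1.15 to -0.50, adjusted p = 8.51e-05) that was short of a call. Dnmt3l had an LFC of -0.59 (adjusted p = 0.00403), with 11.40, 11.46 and 11.52 against 12.27, 11.92 and 11.98. Dnmt3b (LFC 0.64, adjusted p = 0.0127) and Dppa3 (LFC 0.58, adjusted p = 0.0281) lay on the other side, with arrays that overlapped the control through replicate 1. Without that array both were called as higher, with an LFC of 1.09 (adjusted p = 7.47e-09) and 1.01 (adjusted p = 7.19e-07), Tet2 was called as lower (LFC -1.49, adjusted p = 0.00697), and 4 of 10 genes were called in all. The share of all genes called in that fit is not given. Dnmt3a, with a mean of 7.56 with T247 and 7.33 in the control, had an LFC of 0.88 without replicate 1 (adjusted p = 0.0145 by limma), short of a call.

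With MGCD0103 at the 2-cell stage 3 of 10 genes were called, against 23.1% of all genes. Dppa3 read 15.66, 15.61 and 15.59 against 15.35, 13.89 and 14.18 in the control and was higher (LFC 1.14, SE 0.21, adjusted p = 5.03e-05). Dnmt3a read 8.54, 8.39 and 8.37 against 8.64, 6.40 and 6.96, and was called as higher (LFC 1.1, SE 0.35, adjusted p = 0.0137) although control replicate 1 lay above all 3 treated arrays. Tet2 read 4.51, 4.04 and 4.78 against 4.80, 6.49 and 6.23, with 2 of 3 treated arrays above background, and was lower (LFC -1.39, SE 0.43, adjusted p = 0.0111). Dnmt3b, with 11.19, 11.19 and 11.26 against 11.20, 9.84 and 9.84, had an LFC of 0.92 (adjusted p = 0.000514).

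These 4 genes share the same spread in the control: replicate 1 lay close to the MGCD0103 arrays and replicates 2 and 3 apart from them. Without replicate 1 the LFC grew to 1.58 for Dppa3, 1.76 for Dnmt3a, -1.91 for Tet2 and 1.37 for Dnmt3b, and 5 of 10 genes were called, the fifth being Tdg (LFC 1.09, adjusted p = 0.0389). The share of all genes called in that fit is not given, so whether calls grew alike over all genes cannot be read here. Without control replicate 2 or replicate 3 none of the 10 was called, and the Tet2 call was also lost without MGCD0103 replicate 2 (LFC -1.19, adjusted p = 0.0588). None was called when limma was fitted on the arrays of both groups alone, with an adjusted p of 0.105 for Dppa3, 0.249 for Dnmt3a and 0.115 for Tet2.

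Tet3 and Uhrf1, the pair that fell with T247, had an LFC of -0.28 (95% interval -0.71 to 0.15) and -0.25 (-0.46 to -0.03, adjusted p = 0.0636) with MGCD0103. The other Tet3 probes had the opposite sign, with an LFC of 0.61 at position 3494 (adjusted p = 0.00109) and 0.62 at position 4483 (adjusted p = 0.173), and the other Uhrf1 probe had an LFC of 0.06. The comparisons of T247 and of MGCD0103 with the control use the same 3 control arrays, so likeness between their values is not independent.

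At the 4-cell stage 3 of 10 genes were called with T247, against 15.1% of all genes. Dnmt3l, the inactive partner of the de novo enzymes, read 8.98, 9.10 and 9.10 against 10.27, 10.47 and 10.20 in the control. The groups lay more than 1 unit apart, and Dnmt3l fell 2.39-fold (LFC -1.26, SE 0.16, 95% interval -1.59 to -0.92, adjusted p = 7e-07). This call held in all 18 alternative analyses of it, with an LFC between -1.42 and -1.18. Dnmt3b fell 2.01-fold, from 10.99, 10.95 and 11.02 to 10.04, 9.70 and 10.20 (LFC -1.01, SE 0.20, adjusted p = 0.000254). Its probe at position 3843 was called as well (LFC -1.24), and the one at position 2950 had an LFC of -0.49 (adjusted p = 0.0908). The Dnmt3b call lay at the size limit and was lost in 5 of 18 alternative analyses. These were the fits without control replicate 3 (LFC -0.99) or T247 replicate 2 (LFC -0.87), quantile normalisation (LFC -0.89), normexp (LFC -0.96) and the mean of its probes (LFC -0.90). Its adjusted p stayed at or below 0.00826.

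Dnmt3a, the third of the de novo group, was not above background on any of the 6 arrays at this stage, and no fold is given. Tdg was above background with T247 (4.61, 4.58 and 4.19) and not in the control (4.15, 1.92 and 2.42), at least 1.18-fold higher (adjusted p = 0.00275, and 0.0885 with limma on these 6 arrays alone). Its other 2 probes were not above background in either group. The Tdg call was also lost with normexp (LFC 0.26) and with the mean of its probes (LFC 0.44, adjusted p = 0.155). Dnmt1 (LFC -0.41, adjusted p = 0.0437) and Uhrf1 (LFC -0.33, adjusted p = 0.0144) lay lower with T247 by less than the size of a call. Tet2 (LFC -0.93, adjusted p = 0.104), Tet3 (LFC -0.27), Tet1 (LFC -0.34) and Dppa3 (LFC 0.35) did not pass the test. The other Tet3 probes lay higher with T247, at a mean of 7.2 against 6.2 for position 3494 (LFC 0.99, adjusted p = 3.53e-06) and 5.06 against 4.07 for position 4483 (LFC 0.99, adjusted p = 0.0281, with 1 of 3 control arrays above background), each just under the size of a call. The Uhrf1 probe at position 985 also had the opposite sign (LFC 0.39, adjusted p = 0.117).

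**Figure D4:**
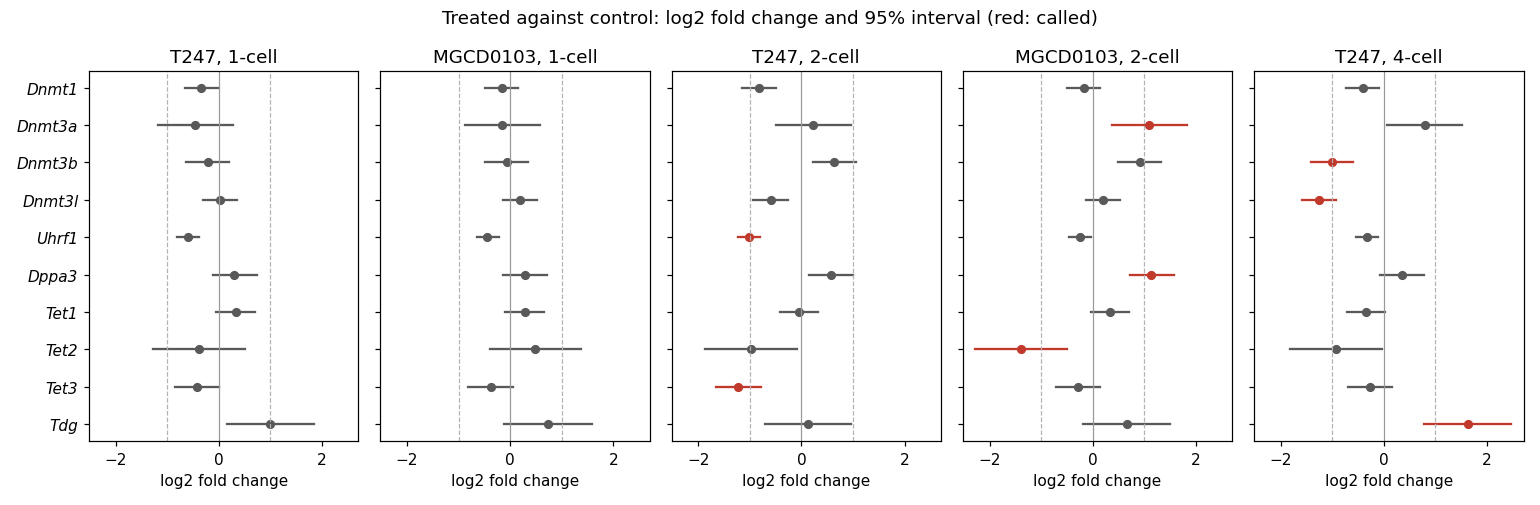
LFC with its 95% interval (x axis, log2 units) of each of the 10 genes (y axis) for each HDACi against the control, stage by stage, red where called and grey where not, with lines at LFC -1, 0 and 1. No gene is called at the 1-cell stage, Tet3 and Uhrf1 lie below -1 in 2-cell T247 embryos, and Dnmt3b and Dnmt3l do so in 4-cell T247 embryos.

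T247 and MGCD0103 were then compared with each other at the same dose, exposure and stage, 1 pair of compounds at 2 stages. At the 1-cell stage none of the 10 genes was called, against 0.248% of all genes, and none had an unadjusted limma p below 0.05. For Uhrf1 the difference, MGCD0103 minus T247, was 0.16 (95% interval -0.05 to 0.38), for Tet3 it was 0.05 (-0.39 to 0.48), and for Dnmt1 0.18 (-0.15 to 0.50). Tdg, with an interval from -1.11 to 0.58, and Tet2, from -0.03 to 1.75, were too dim for a narrow limit.

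At the 2-cell stage again none was called, against 5.13% of all genes, but 4 of 10 had an adjusted p below 0.05 at a smaller size, each higher with MGCD0103. These were Tet3 (0.94, 95% interval 0.50 to 1.37, adjusted p = 0.0022), Dnmt3l (0.79, 0.46 to 1.13, adjusted p = 0.000901), Uhrf1 (0.77, 0.55 to 0.98, adjusted p = 8.38e-06) and Dnmt1 (0.66, 0.34 to 0.98, adjusted p = 0.00362). In all 4 the 3 T247 arrays lay below the 3 MGCD0103 arrays, and 6 of 10 genes had an unadjusted limma p below 0.05. No share of all genes is given for these looser limits, so the counts describe the 10 genes only. The median LFC in this comparison was 0.61 for the 10 and 0.16 for all genes. Dnmt3b (0.28, -0.13 to 0.70) and Tet2 (-0.42, -1.31 to 0.47) did not differ beyond the error of the fit. The Dnmt3b arrays of T247 (at most 11.01) still lay below those of MGCD0103 (at least 11.19). Those of Dnmt3a did so too (at most 7.75 against at least 8.37), without an adjusted p below 0.05. The control means do not enter this comparison, but its error is estimated from all 39 arrays, the 2-cell control included. The SD of that control was 0.79 for Dnmt3b and 1.17 for Dnmt3a.

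Whether an effect changed with stage was tested as a difference of differences. From the 1-cell to the 2-cell stage none of the 10 changed its response to T247 by the call rule, against 14.7% of all genes, and 5 of 10 had an unadjusted limma p below 0.05. No share of all genes is given for that looser limit. The change of Dnmt3b was 0.86 (adjusted p = 0.0293), and it was called without 2-cell control replicate 1 (1.31), where that of Dnmt3a was too (1.34 in place of 0.69), and under 75th percentile scaling (1.16), quantile normalisation (1.42) and array weights (1.31). For MGCD0103 1 of 10 did, against 16.4%: the LFC of Tet2 went from 0.48 to -1.39, a change of -1.88 (SE 0.61, adjusted p = 0.0264), with every 1-cell array of both groups at background. Without 2-cell control replicate 1 the changes of Dnmt3a (1.90 in place of 1.25), Dnmt3b (1.44 in place of 0.99) and Dppa3 (1.29 in place of 0.85) were called as well. From the 2-cell to the 4-cell stage 1 of 10 changed its response to T247, against 19.3%. Dnmt3b went from an LFC of 0.64 to -1.01, a change of -1.65 (SE 0.29, adjusted p = 5.95e-05), and its other probes changed by -1.64 and -1.21. Uhrf1 went the other way, from -1.01 to -0.33, a change of 0.68 (adjusted p = 0.000776).

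Around these genes, 40 others of the pathway were followed in 4 lists: 8 readers of methylated DNA, 14 partners and guides, 12 excision repair genes and 6 genes of methyl donor synthesis, all of them measured. At the 1-cell stage 2 of 40 were called with T247 and 3 of 40 with MGCD0103, against 6.89% and 4.13% of all genes. Zbtb4, a zinc-finger reader of methylated CpGs, was higher with both, from a mean of 5.65 in the control to 7.26 with T247 (LFC 1.62, adjusted p = 8.17e-06) and 6.96 with MGCD0103 (LFC 1.32, adjusted p = 0.000223). Both calls were lost with normexp background correction (LFC 0.85 and 0.62) and with the mean of its probes (LFC 0.37 and 0.24). Zbtb38, a related reader, was also called with both but was on no control array above background and on 1 and 2 treated arrays, and no fold is given. Gadd45g, a stress-induced gene with a debated part in demethylation, was lower with MGCD0103 (LFC -1.17, adjusted p = 0.000491).

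At the 2-cell stage 14 of 40 were called with T247, 12 of them lower, and 13 of 40 with MGCD0103, 7 of them lower, against 20.9% and 23.1% of all genes. Of all 31872 genes, 3824 (12%) were called as lower and 2849 as higher with T247. With MGCD0103 the numbers were 3722 and 3631. The median LFC of the 40 was -0.38 with T247 and -0.06 with MGCD0103, against -0.21 and -0.02 for all genes. Stage markers moved in the same comparisons: of the 8 blastocyst genes 4 were called as higher with T247 and 3 with MGCD0103 (median LFC 0.72 each), and of the 7 oocyte genes 1 was called as lower with each (median LFC -0.77 and -0.20). Their summed levels on the log2 scale were 13.45 to 13.62 in the control, 13.62 to 13.71 with T247 and 13.79 to 13.93 with MGCD0103 for the blastocyst genes, and 17.56 to 17.64, 17.12 to 17.25 and 17.60 to 17.65 for the oocyte genes, and 7 of the 8 blastocyst genes were above background on all 3 control arrays against 8 of 8 with either compound. Pou5f1, with a control mean of 13.21, dominated the blastocyst sum. The blastocyst genes did not move alike. Cdx2, Gata3, Krt8, Krt18 and Gata6 had higher means with both compounds. Nanog (6.17 in the control, 5.22 with T247 and 5.11 with MGCD0103) and Pou5f1 (12.73 and 13.04 with the compounds) were lower with both. Sox2, at 8.53 in the control, read 8.90 with T247 and 8.14 with MGCD0103. The part of these markers in the values of the methylation genes was not tested. Of the 14 partners and guides, 6 were called with T247, all lower, among them Trim28, the corepressor that protects imprints (LFC -1.45, adjusted p = 4.88e-08), and Cxxc5, a CpG-binding protein (LFC -2.34, adjusted p = 0.000259). With MGCD0103 5 of the 14 were called, 4 lower, again with Trim28 (LFC -1.64) and Cxxc5 (LFC -2.34). Without 2-cell control replicate 1 the LFC of Cxxc5 was -3.48 for each compound. Both Cxxc5 calls were lost with limma on the arrays compared alone and both Trim28 calls with the mean of its probes.

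Of the 6 genes of methyl donor synthesis, Mat2a, which makes S-adenosylmethionine, fell with T247 from a mean of 13.97 to 12.09 (LFC -1.88, adjusted p = 5.8e-09) and to 11.50 with MGCD0103 (LFC -2.47, adjusted p = 2.33e-11). Shmt1, a folate enzyme, had a mean of 8.65 in the control and 6.92 with MGCD0103 (LFC -1.74, adjusted p = 5.57e-07), and it was lower with MGCD0103 than with T247 (-1.07, adjusted p = 0.00178), a call lost in 4 of 18 alternative analyses, among them those without T247 replicate 1 or MGCD0103 replicate 1. Among the repair genes Apex1, the endonuclease that acts after Tdg, fell with T247 (LFC -2.08) and MGCD0103 (LFC -1.96), and Gadd45g was higher with each (LFC 1.88 and 1.82). Of the readers, Mbd4, which is also a glycosylase, fell with T247 (LFC -1.25, adjusted p = 0.0209), a call that was lost in 5 of 18 alternative analyses, among them those without 2-cell control replicate 2, control replicate 3 or T247 replicate 1, with an adjusted p of up to 0.0727. Zbtb4, on no control array above background, was at least 1.7-fold higher with T247, the bound for MGCD0103 being 1.58-fold, and both calls were lost with normexp and with the mean of its probes.

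At the 4-cell stage 7 of 40 were called with T247, 5 of them higher, against 15.1% of all genes. Of all 31872 genes, 3361 were called as higher there and 1463 as lower, so most calls were higher there too. Of the 8 blastocyst genes 1 was called as higher and 3 as lower in that comparison (median LFC -0.32), and their part in it was not tested. Uhrf2, the paralogue of Uhrf1, was higher, at a mean of 11.05 against 9.63 (LFC 1.41, SE 0.26, adjusted p = 7.32e-05). Neil1, a glycosylase that can act beside Tdg, fell from 6.75 to 4.80 (LFC -1.95, adjusted p = 1.85e-08; LFC -0.95 and no call with normexp), and Gadd45a was higher (LFC 1.65, adjusted p = 3.68e-07). Zbtb4 was called again, but on no array of either group was it above background.

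**Figure D5:**
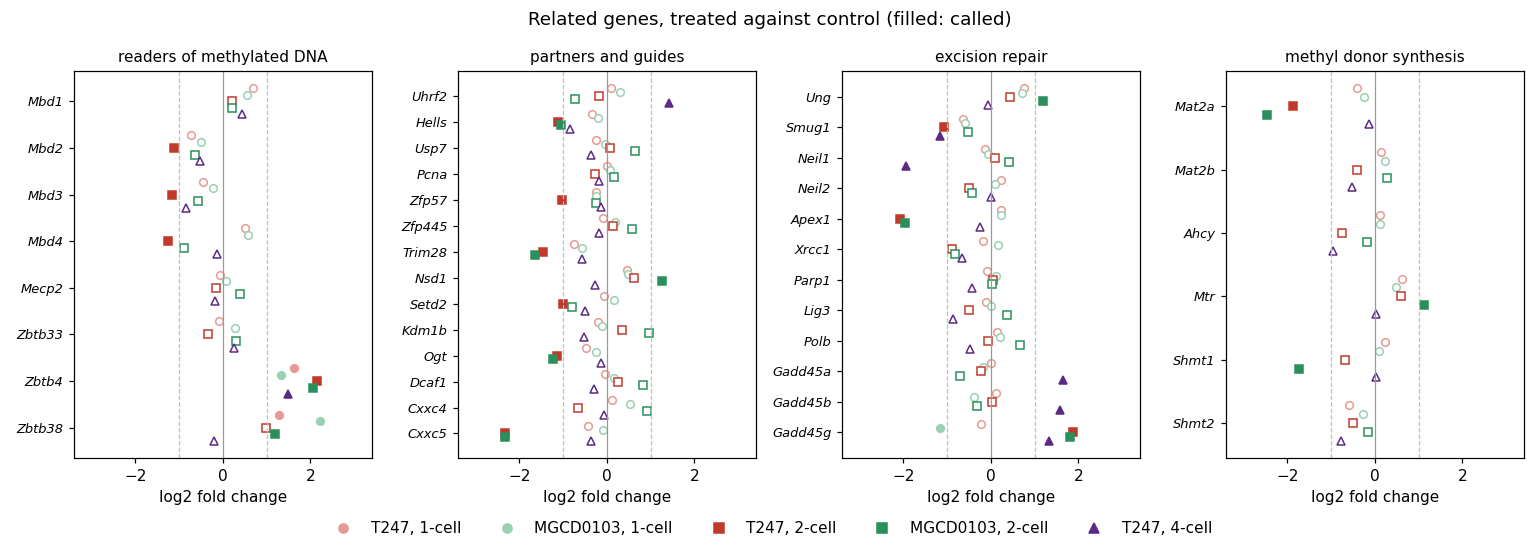
LFC (x axis, log2 units) of the 40 related genes, in 1 panel for each list (y axis), for each treatment comparison by symbol and colour, filled where called. Mat2a, Apex1, Trim28 and Cxxc5 lie below -1 with both compounds at the 2-cell stage, and Gadd45g and Zbtb4 lie above 1.

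Over the means of the 13 conditions, and among 23516 candidate genes, the genes whose course was most like that of each gene whose means spanned at least 2 units, which leaves out Dppa3, were Gm5482 for Dnmt1 (r = 0.987), Echs1 for Dnmt3a (0.99), Rbms1 for Dnmt3b (0.991), Atp13a2 for Dnmt3l (0.99), Dpcd for Tet1 (0.988), Abcc5 for Tet2 (0.99) and Hif1a for Uhrf1 (0.991). For Tet3 an unnamed intergenic transcript came first (0.996) and Oas1e next (0.993), and Tdg had its best at 0.924 (Lrp3). Within the set the nearest pairs were Dnmt3a and Uhrf1 (0.926) and Dnmt1 and Tet1 (0.925), and the most opposed were Tet2 and Tet3 (-0.873). Such values rest on 13 means from shared arrays and describe likeness only.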

How the data were processed

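RNA of 39 pools was hybridised to one-colour Agilent arrays. The deposited scanner files gave, per the file headers, background-subtracted processed signal intensities of Agilent Feature Extraction, and the labels name version 9.5.1.1 where the headers give 10.7.1.1. The authors' deposited table of log2 values was used as an alternative only. The members and gene lists were chosen with earlier results of these data known. Control spots were left out, the 59305 spots were averaged to 55681 probes, and log2 intensities underwent smooth quantile normalisation over the 13 conditions. Probes positive and significant on at least 1 array of a condition were kept, of which the brightest stood for its gene name. All 39 arrays were fitted with limma 3.58.1 (R 4.3.3), with no covariate, and p-values were adjusted over 31872 genes. The number of arrays limits the precision. The study describes replicates as biological. Groups came from the labels.

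A group with no array well above background has only a bound, for which each of its arrays entered at the lowest signal well above background or at the probe's own, whichever was higher, and the fold is written "at least". The genes of the 4 lists named in the text were the called genes of largest absolute LFC, at most 2 for each list and comparison, and 1 gene is not reported here. Alternatives were 75th percentile scaling, quantile normalisation, normexp background correction with an offset of 50, other filters and probe rules, only the arrays compared, array weights, slide and replicate blocks, the authors' table and each array left out. The fit was tested on simulated data. Replicate numbers pair the untreated stages, since the headers place each number on 1 slide.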

Additional observations from a re-analysis of the deposited data

Results flagged for a closer look

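The response of Dnmt3b to T247 differed between stages by the test of the difference itself. The change from the 2-cell to the 4-cell stage was -1.65 on the log2 scale (SE 0.29, adjusted p = 5.95e-05 by limma), from an LFC of 0.64 to one of -1.01, and it held in all 24 alternative analyses, between -2.10 and -1.42.

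The response of Tet2 to MGCD0103 differed between the 1-cell and the 2-cell stage by the same test, with a change of -1.88 (SE 0.61, adjusted p = 0.0264 by limma). Tet2 was not well above background on any 1-cell array of either group, and the call was lost in 9 of 23 alternative analyses, among them those without 2-cell control replicate 2 or replicate 3.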

How the results depend on the processing

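Counts of the 10 genes called moved by over 1.5 times in these settings, for which shares of all genes are not given here. With T247 the count was 1 in place of 0 at the 1-cell stage when limma used the arrays compared alone. At the 2-cell stage it was 1 under 75th percentile scaling and 0 with the mean of a gene's probes, in place of 2, and at the 4-cell stage 1 with normexp and 1 with the mean of probes, in place of 3. With MGCD0103 at the 2-cell stage it was 1 with normexp, 0 with the arrays compared alone, 5 with array weights and 1 with the authors' table, in place of 3. From the 2-cell to the 4-cell stage it was 8 under 75th percentile scaling and 3 with the authors' table, in place of 5. From the 4-cell to the 8-cell stage it was 1 under 75th percentile scaling, quantile normalisation, normexp and the authors' table, in place of 2, and from there to the morula 4 with the authors' table, in place of 7. Leaving out each array in turn gave 1 to 4 for T247 and 0 to 5 for MGCD0103 at the 2-cell stage, 1 to 3 from MII to the 1-cell stage and 1 to 2 for the step into 8-cell embryos. For the change of the T247 effect between 1-cell and 2-cell embryos the count was 1 under 75th percentile scaling, quantile normalisation and the mean of probes and 2 with array weights, in place of 0. For that of MGCD0103 it was 3 under either scaling, 4 with array weights and 0 with normexp, dim signals as missing, the arrays compared alone or the authors' table, in place of 1. For T247 between 2-cell and 4-cell embryos it was 2 under either scaling, with genes detected in each condition or with the mean of probes, in place of 1. Leaving out each array gave 0 to 2, 0 to 4 and 1 to 2 for these 3 changes. The other counts of the 10 stayed within 1.5 times. At the 2-cell stage quantile normalisation left the T247 count at 2 but exchanged Tet3 and Uhrf1 for Dnmt3b and Tet2. Of the 40 related genes, T247 at the 2-cell stage gave 7 calls under 75th percentile scaling, 8 with normexp and 9 with the mean of probes, in place of 14, MGCD0103 8 with the mean of probes, in place of 13, and T247 at the 4-cell stage 4 with normexp, in place of 7. At the 1-cell stage they ranged from 0 to 3.

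Directions turned under these settings. From GV to MII, 75th percentile scaling gave an LFC of 0.05 for Tet1, 0.02 for Tet2 and 1.11 for Dppa3, and quantile normalisation 1.05 for Dnmt3a and 0.20 for Tet1; the Tet1 probes at positions 3128 and 6892 each gave 0.40. For Tet1 at the 1-cell stage the probe at position 3128, above background on no array, gave -1.13 with T247 and -1.42 with MGCD0103. From the 1-cell to the 2-cell stage Tet1 gave 3.04 at position 3128, 0.30 at position 6892 and 0.48 with the mean of probes. Tet2 gave 0.34 at position 668 and 0.13 at position 8857 from MII to the 1-cell stage, and -2.39 at position 668 from the 2-cell to the 4-cell stage. Tdg at position 2972 gave -0.33 with T247 at the 4-cell stage. The cause of these differences was not tested.

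With the replicate number or the slide as a block, all 220 results kept their direction and their side of the threshold: the replicate block left the counts of called genes at 2 for T247 in 2-cell embryos, 3 for MGCD0103 and 3 for T247 in 4-cell embryos. No slide held both treated and control embryos, so a slide block cannot remove a slide effect from those comparisons. Replicate numbers do not pair treated with control arrays either, whose same-numbered deviations correlated between -0.087 and 0.106. The unchanged treated calls therefore do not bear on a slide effect.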
